A study of Mus musculus with 2 samples.

Results

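Macrophages that transcribed the matrix metalloproteinase genes Mmp12 and Mmp13 were examined in MC38 tumors, a mouse colon carcinoma model, with and without local irradiation. The cells were chosen by measured values, from raw UMI counts (a UMI, or unique molecular identifier, marks 1 captured RNA molecule). A barcode was selected when it held at least 2000 UMIs, at most 25% of them mitochondrial, no UMI of the T cell genes Cd3d or Cd3g, and at least 10 UMIs of the complement genes C1qa, C1qb and C1qc, with more of these than of the monocyte genes Ly6c2, Ccr2 and Chil3. Cycling cells (5 or more UMIs of Mki67, Top2a, Birc5, Ube2c and Pclaf) were left out. Cells with 3 or more UMIs of the resident macrophage genes Lyve1, Folr2, Cd209f and Cbr2, with 3 or more of Dcstamp, Ccl17 and Tnip3, or with 5 or more of Clec5a, Gpr84 and Fcgr4 were also left out. The remaining cells were selected when Mmp12 and Mmp13 together reached at least 5 UMIs. This gave 227 of the 7408 barcodes kept in the series, 190 from Control and 37 from IR.

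Both libraries were prepared from CD45+ cells (leukocytes) sorted from MC38 tumors of WT mice, with 10x droplet chemistry that reads the 3′ end of transcripts. The Control library came from tumors that were not irradiated, and the IR library from tumors that received 1 dose of 20 Gy and were collected 4 days later. Each library pooled cells of tumor-bearing mice, so there was 1 library per group, no replicate, and no test between the groups. The intervals given are 95% intervals for counting error only and hold no variation between animals. The sample records also name a narrower cell type, CD45+CD11b+Ly6Chi, which was set against the selected cells. Ptprc, which encodes CD45, was detected in 91.6% of the selected Control cells and 75.7% of the selected IR cells, and Itgam, which encodes CD11b, in 92.1% and 91.9%. Ly6c2, which encodes a chain of the Ly6C antigen and entered the selection, was detected in 10.5% and 40.5%. The selected cells therefore carried transcripts of CD45 and CD11b, and most of them held no Ly6c2 UMI.

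Mmp12 encodes macrophage elastase, a secreted enzyme that cleaves elastin and other matrix proteins, and Mmp13 encodes collagenase 3, which cleaves fibrillar collagen. Both are made as inactive precursors, and tissue inhibitors of metalloproteinases (TIMPs) block the active enzymes. Tumor macrophages form from blood monocytes that lose monocyte genes and gain complement C1q as they differentiate, and their programs differ with oxygen supply, interferon and the debris they take up.

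The start regions of a few genes that the results below turn on are shown first, because the genes differ in level between the cell groups described. Each sequence is the 250 bases before a RefSeq transcription start (build GRCm38.p6), written 5′ to 3′ on the gene's own strand, with matches in capitals. The letters TGANTCA (the AP-1 motif, bound by Fos and Jun proteins) were searched in Mmp12 and Mmp13. The Mmp12 window lies at chr9:7347124-7347373 on the plus strand, before the second of its 2 starts in the table, and the Mmp13 window at chr9:7272264-7272513 on the plus strand.
Mmp12: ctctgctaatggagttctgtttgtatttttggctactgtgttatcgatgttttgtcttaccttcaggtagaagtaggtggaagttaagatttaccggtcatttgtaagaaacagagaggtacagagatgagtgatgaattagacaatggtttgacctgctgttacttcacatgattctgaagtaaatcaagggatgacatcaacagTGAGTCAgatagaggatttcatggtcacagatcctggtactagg
Mmp13: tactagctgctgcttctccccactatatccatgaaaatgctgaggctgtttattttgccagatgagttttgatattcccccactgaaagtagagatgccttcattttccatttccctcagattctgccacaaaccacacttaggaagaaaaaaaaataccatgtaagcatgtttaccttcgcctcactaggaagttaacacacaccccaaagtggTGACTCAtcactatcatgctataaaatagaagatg

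The motif began 44 bases before the Mmp12 start and 35 bases before the Mmp13 start. The window before the other Mmp12 start, at chr9:7344147-7344396, held 0 matches. On either strand, TGANTCA was found in 6.75% of 32851 promoter windows of this length. The hypoxia response element core ACGTG was found in 16.6% of the windows. It is shown for Bnip3 (minus strand, chr7:138909507-138909756) and for Egln3 (minus strand, chr12:54203875-54204124). In Bnip3, 2 matches overlap because CACGTG reads the same on both strands.
Bnip3: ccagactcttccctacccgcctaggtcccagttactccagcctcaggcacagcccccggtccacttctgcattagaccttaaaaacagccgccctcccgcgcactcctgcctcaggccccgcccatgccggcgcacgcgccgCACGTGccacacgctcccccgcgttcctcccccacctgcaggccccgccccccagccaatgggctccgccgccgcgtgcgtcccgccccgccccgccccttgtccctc
Egln3: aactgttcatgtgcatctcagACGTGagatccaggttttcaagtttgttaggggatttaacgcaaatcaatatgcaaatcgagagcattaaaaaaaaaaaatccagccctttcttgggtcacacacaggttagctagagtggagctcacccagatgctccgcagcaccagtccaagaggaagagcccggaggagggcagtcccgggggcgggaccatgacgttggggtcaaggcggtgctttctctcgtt

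The interferon-stimulated response element (ISRE), searched as GAAA followed by any 2 bases and GAAA again, was found in 2.98% of the windows. Isg15, an interferon-induced ubiquitin-like modifier, is shown for it (minus strand, chr4:156200819-156201068), with 3 overlapping matches that began between 78 and 66 bases before the start.
Isg15: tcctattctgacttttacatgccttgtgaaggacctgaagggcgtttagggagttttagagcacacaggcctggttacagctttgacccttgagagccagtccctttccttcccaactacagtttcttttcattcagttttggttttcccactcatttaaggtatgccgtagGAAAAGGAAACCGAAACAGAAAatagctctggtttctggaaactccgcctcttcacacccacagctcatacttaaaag

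A match is a description of letters and not of binding, which was not measured in these samples.

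The 2 genes of the selection were unevenly spread over the cells. In Control, 67 of the 190 cells held both transcripts, 121 held Mmp12 alone and 2 held Mmp13 alone. In IR, 13 of the 37 cells held both, 23 held Mmp12 alone and 1 held Mmp13 alone. Mmp12 was therefore the main transcript behind the selection in both libraries. Mmp12 ranged from 0 to 176 UMIs per cell with a median of 14 in Control, and from 0 to 209 with a median of 9 in IR. Mmp13 was detected in 36.3% of the Control cells and 37.8% of the IR cells, and reached 30 UMIs in the highest Control cell and 48 in the highest IR cell. The 10 highest cells held 27.1% of the Mmp12 UMIs in Control and 78.2% in IR, so the IR sum rested on few cells. For Mmp13 those shares were 53.4% and 95.5%. At the edge of the selection, 18 Control and 5 IR cells held exactly 5 UMIs of the pair, and 17 Control and 4 IR cells that met every other criterion held exactly 4 and stayed outside.

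**Figure D1:**
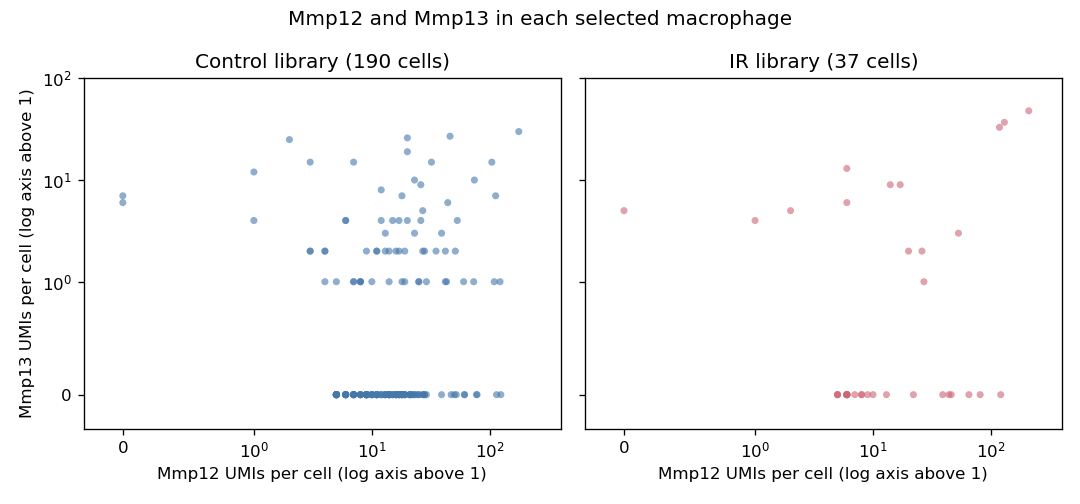
Mmp12 UMIs (horizontal) and Mmp13 UMIs (vertical) in each selected macrophage of the Control (190 cells) and IR (37 cells) libraries, on axes that are logarithmic above 1. Most points lie on the lower edge, at 0 Mmp13 UMIs, and the highest IR cell reaches 209 Mmp12 and 48 Mmp13 UMIs.

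Pf4, Ms4a7, Apoe and Hmox1, the other marker genes given for these cells, were described next. Levels below are in CPM, a gene's UMIs summed over the cells of a group and scaled to the group's total UMIs. Pf4, which encodes the chemokine platelet factor 4 and lies at chr5:90772435-90773383, was detected in 76.8% of Control and 75.7% of IR cells. Its UMIs per cell ranged from 0 to 151 with a median of 4 in Control, and from 0 to 333 with a median of 16 in IR. Its level was 1362 CPM in Control and 4525 CPM in IR, a ratio of 3.32 (3.12 to 3.54), while the ranges over cells overlapped. Hmox1, which encodes the heme-degrading enzyme heme oxygenase 1, was at 388 CPM in Control and 703 CPM in IR, a ratio of 1.81 (1.56 to 2.09). Its median was 2 UMIs per Control cell and 3 per IR cell, with 60 and 80 UMIs in the highest cells. Over the processing alternatives its log2 ratio ranged from 0.46 to 1.63. Ms4a7, a membrane protein gene of macrophages, was at 225 and 256 CPM, a ratio of 1.14 (0.90 to 1.43) whose interval included 1. Apoe, which encodes the lipid carrier apolipoprotein E, was at 2181 and 2280 CPM, a ratio of 1.05 (0.97 to 1.13), but its distribution differed. Apoe was detected in 88.4% of Control cells with a median of 11 UMIs, and in 59.5% of IR cells with a median of 1. One IR cell held 26.9% of the Apoe UMIs of that library.

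All 4 of these genes were present, which is a description and no independent check, because the cells were chosen with earlier results of these data known. The comparison group was the C1q macrophages that met every other criterion and held 0 UMIs of Mmp12 and Mmp13, 396 in Control and 66 in IR, called Mmp-negative macrophages here. Relative to these, Pf4 was 1.89-fold higher in Control and 3.29-fold higher in IR, and Hmox1 2.01-fold and 2.62-fold higher. The cells left out for resident genes held Pf4 at 2672 CPM in Control against 3150 CPM in IR, with Hmox1 at 561 and 1076 CPM. Pf4 was thus higher there than in the selected cells in Control and lower in IR, and Hmox1 was higher there in both libraries. Ms4a7 was at 0.54 of the Mmp-negative level in Control and 1.25 times that level in IR, and Apoe at 0.68 and 1.28. The typical IR cell went the other way for Apoe. It was detected in 59.5% of selected and 71.2% of Mmp-negative IR cells, with medians of 1 and 4 UMIs. The general macrophage genes were present in the selected cells of both libraries. Csf1r, the receptor for macrophage colony-stimulating factor, was at 338 and 275 CPM. Trem2, a lipid-sensing receptor, was at 454 and 461 CPM.

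Markers of other cell types varied by list. The T cell list summed to 38 UMIs in the Control and 8 in the IR selected cells, with Cd3e and Trac at 0 in IR. The B cell list summed to 7 and 0 UMIs, and the fibroblast list to 72 and 0, of which 64 lay in 1 Control cell. The mast cell or basophil list summed to 0 UMIs in Control and 7 in IR, all 7 in 1 cell, and the dendritic cell list to 17 and 4. Of the epithelial list, Epcam, Krt8 and Krt18 were at 0 in both libraries, which allows up to 3 UMIs of each. The other gene of that list, Cdh1, which encodes E-cadherin, held 185 UMIs in Control (105 CPM, 50% of cells) and 13 in IR (36.1 CPM, 18.9% of cells), and empty droplets held it at 45 and 34.4 CPM. The monocyte list, which shares genes with the selection, summed to 931 and 325 UMIs, the NK cell list to 216 and 80, of which 67 lay in 1 IR cell, and the osteoclast list to 181 and 38. The neutrophil list summed to 175 UMIs in Control and 519 in IR, of which 493 lay in 1 IR cell. That cell held 12643 UMIs, 26 of C1q genes and 6 of Mmp12, and was not among the highest doublet scores. Values that rest on it are given with and without it. The 2 libraries shared 6 of the barcodes kept and 0 of the selected barcodes.

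The selected macrophages were a smaller share of all leukocytes in the IR library. They made up 4.47% of Control barcodes (190 of 4249, 3.87% to 5.14%) and 1.17% of IR barcodes (37 of 3159, 0.826% to 1.61%), a ratio of 0.262 (0.185 to 0.371). C1q macrophages of every kind were also a smaller share, 39.0% in Control (1659 cells) and 13.9% in IR (439 cells), a ratio of 0.356 (0.324 to 0.391). Among C1q macrophages the selected cells were 11.5% in Control and 8.43% in IR, a ratio of 0.736 (0.526 to 1.03). Among the C1q macrophages that met every exclusion, 756 in Control and 137 in IR, they were 25.1% (22.1% to 28.4%) and 27.0% (19.8% to 35.3%), a ratio of 1.07 (0.795 to 1.45). Against all leukocytes the interval lay below 1, and against C1q macrophages, with or without the exclusions, it included 1. The exclusions did not act equally. Clec5a, Gpr84 and Fcgr4 removed 19.8% of C1q macrophages in Control and 52.4% in IR. Fewer macrophages and more of other leukocytes cannot be told apart in shares. With every cell thinned to 2000 UMIs, the share of all barcodes was 1.74% in Control and 0.570% in IR, a ratio of 0.327 (0.196 to 0.546). The UMI limits of the selection were unchanged at that depth, so the exclusions removed fewer cells. Of the C1q macrophages, 1058 of 1270 in Control and 218 of 242 in IR then met every exclusion. The thinned selection can therefore hold cells that the exclusions removed at full depth. At that depth the share of C1q macrophages was 5.83% (74 of 1270) and 7.44% (18 of 242), a ratio of 1.28 (0.777 to 2.10) in the other direction from 0.736, and among those meeting every exclusion the ratio was 1.18 (0.720 to 1.93).

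**Figure D2:**
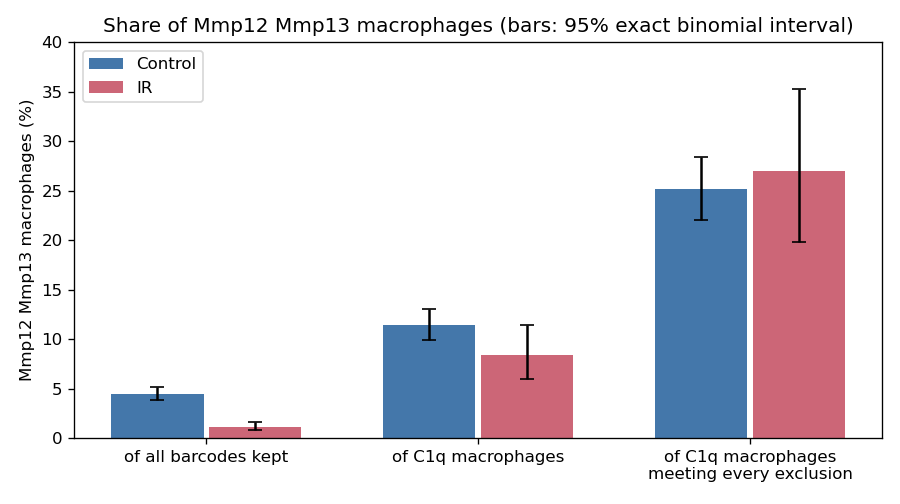
Selected macrophages as a percentage of all barcodes kept, of C1q macrophages, and of C1q macrophages that met every exclusion, in Control and IR, with exact binomial intervals (95%). The IR bar is lower against all barcodes (1.17% and 4.47%), and the intervals overlap in the last pair (27.0% and 25.1%).

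Mmp12 and Mmp13 were not limited to the selected cells. At least 5 UMIs of the pair were found in 45.6% of the cells left out for Dcstamp, Ccl17 and Tnip3 in Control and 49.5% in IR, in 32.9% and 38.7% of those left out for Clec5a, Gpr84 and Fcgr4, and in 17.9% and 25.7% of those left out for resident genes. T cells, which should lack these transcripts, reached 5 UMIs in 5.38% of 483 Control and 10.5% of 400 IR cells, at median depths of 5683 and 8952 UMIs. Every macrophage set above lay above the T cell share of its own library. The Mmp12 level was 2280 CPM in the selected Control cells and 849 CPM in the Dcstamp set, the next highest macrophage set in Control. In IR it was 3219 CPM in the selected cells, 2252 CPM in the 35 cells of the resident set and 1708 CPM in the Dcstamp set. Since the selection used these counts, the order is a description.

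Among the other metalloproteinase genes, Mmp14, a membrane-bound collagenase, was at 246 CPM in Control against 258 CPM in IR, and Mmp19 at 76.5 and 66.7 CPM. The inhibitor gene Timp2 was at 427 and 458 CPM. Adam8, a membrane metalloproteinase, was at 516 and 678 CPM, a ratio of 1.31 (1.14 to 1.52). None of the 9 listed genes with enough counts passed a 2-fold difference between the libraries, and their median log2 ratio was -0.17. Mmp9, the gelatinase B gene, was near 0, with 2 UMIs in Control and 4 in IR, all 4 in 1 cell.

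The selected cells were next compared with the Mmp-negative macrophages of the same library. A gene entered when its mean level was at least 50 CPM, and a difference was counted when the ratio of CPM + 10 was at least 2-fold in the same direction in both libraries. The selected cells had more UMIs per cell (median 8710 in Control and 9423 in IR) than the Mmp-negative cells (median 6290 and 6276). Of 2674 genes, 20 were higher (0.748%), Mmp12 and Mmp13 of the selection among them, and 17 were lower (0.636%), with Ly6c2 of the selection among these. The genes are a description of the cells chosen.

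Genes of oxygen sensing and glycolysis stood on the higher side. Egln3, which encodes a prolyl hydroxylase that marks hypoxia-inducible factors for degradation, was at 14.6 CPM in Mmp-negative and 123 CPM in selected Control cells, and at 27.5 and 97.2 CPM in IR. The ratios were 8.44 in Control and 3.54 (1.83 to 7.28) in IR. Bnip3, a mitophagy receptor gene, was at 146 and 343 CPM in Control and at 156 and 436 CPM in IR, ratios of 2.34 (2.06 to 2.67) and 2.79 (2.10 to 3.73). Ankrd37 was at 28.1 and 112 CPM in Control and at 27.5 and 69.4 CPM in IR, where its log2 difference was 0.94 without the top cell of each group. Of the 37 genes, 35 kept 2-fold in both libraries without those cells. The 35 include Mmp12 and Mmp13, which the Mmp-negative cells lack by selection and so could not be lost, and Ly6c2, also of the selection. Ero1l, an oxidase of the endoplasmic reticulum, also passed the threshold in both libraries. All 21 listed glycolysis and hypoxia genes with enough counts were higher in the selected cells of both libraries, 4 of them by 2-fold or more in both. Over all genes compared, 609 of 2674 were higher in both (22.8%). Their median log2 difference was 0.57 in Control and 0.36 in IR, beside -0.08 and -0.07 over all genes compared. Pgk1 and Ldha, which encode glycolytic enzymes, were 1.84-fold and 1.45-fold higher in Control. In IR, Pgk1 was 1.46-fold higher and the Ldha ratio was 1.07 (0.95 to 1.22), an interval that included 1. Of 19 of these genes with a promoter in the table, 11 held ACGTG (57.9%), as did 27.9% of the 2096 genes with a promoter among those compared between IR and Control. Among the genes past 2-fold on the higher side, 6 of 16 with a promoter held it (37.5%). The 16 include Mmp12 and Mmp13 of the selection, which did not hold it. Among those on the lower side, 2 of 13 did (15.4%). The part of these letters in the levels was not tested.

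The other genes past the threshold included several that encode secreted proteins. Spp1, which encodes the matrix glycoprotein osteopontin, was at 1200 CPM in Mmp-negative and 4678 CPM in selected Control cells, and at 4365 and 10060 CPM in IR, ratios of 3.90 (3.74 to 4.06) and 2.30 (2.18 to 2.43). Ctsl, which encodes the lysosomal protease cathepsin L, was 2.88-fold higher in Control and 3.02-fold higher in IR. Cxcl3, a neutrophil-attracting chemokine gene, was at 16.8 and 355 CPM in Control and at 311 and 1000 CPM in IR. In the selected Control cells, Cxcl3 was detected in 16.8% of cells and reached 204 UMIs in the highest. Inhba, the activin A subunit gene, was 3.72-fold and 3.79-fold higher, and Hilpda, a lipid droplet protein gene, 3.05-fold and 2.68-fold. Nos2, the inducible nitric oxide synthase gene, was 3.11-fold and 3.28-fold higher. Mt2, a metallothionein gene, was 3.17-fold and 6.98-fold higher, and Il7r, an interleukin 7 receptor chain gene, 2.85-fold and 2.54-fold. Ccl6, Pmp22, Lhfpl2 and Hist1h1c also passed the threshold. Of 18 lipid handling genes, 11 were higher in both libraries, beside 22.8% of all genes compared. The list includes Spp1, which was the 1 gene of it that passed 2-fold in both. Fabp5, a fatty acid carrier gene, was 2.01-fold and 3.43-fold higher, and Lgals3, the galectin 3 gene, 2.47-fold and 1.86-fold.

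**Figure D3:**
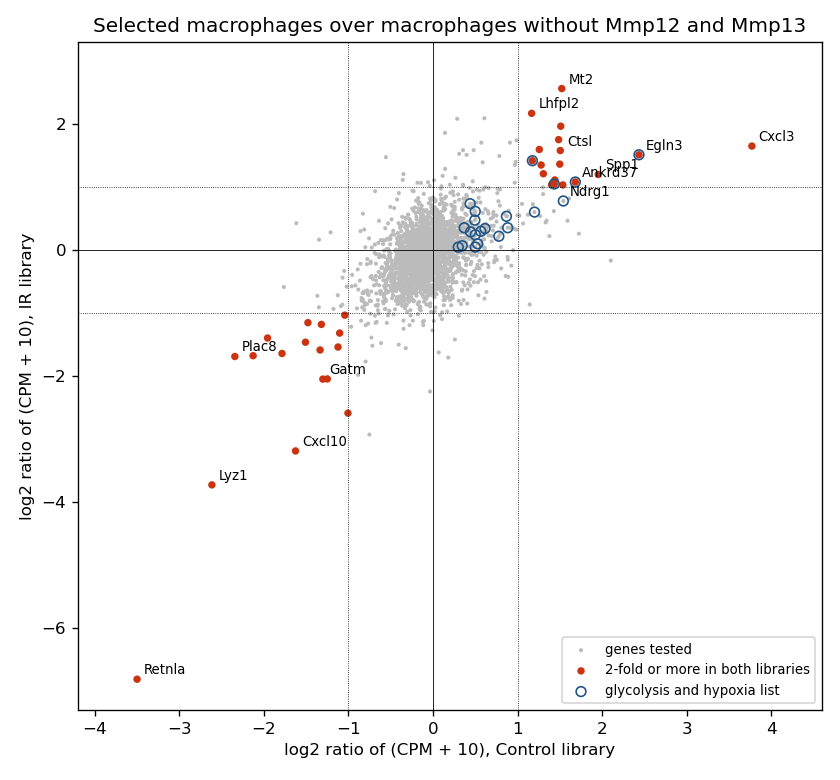
Log2 ratio of CPM + 10, selected over Mmp-negative macrophages, in Control (horizontal) and IR (vertical), with 1 point per gene and without Mmp12 and Mmp13. Red points passed 2-fold in both libraries, and all 21 open circles (glycolysis and hypoxia genes) lie above 0 on both axes.

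Genes that were lower in the selected cells included monocyte and interferon genes. Retnla, which encodes a secreted protein of alternatively activated macrophages, was at 1275 CPM in Mmp-negative and 104 CPM in selected Control cells. In IR it was at 1112 CPM in Mmp-negative cells and at 0 UMIs in the selected cells, which is at least 133-fold lower when 3 UMIs are allowed. Lyz1, a lysozyme gene whose reads may be shared with its close paralog Lyz2, was at 134 and 13.6 CPM in Control and at 343 and 16.7 CPM in IR. Plac8 and Ms4a4c, which are high in monocytes, were lower by log2 differences of -2.34 and -2.13 in Control and of -1.69 and -1.67 in IR. Cxcl10, an interferon-induced chemokine gene, was at 211 and 61.8 CPM in Control and at 789 and 77.8 CPM in IR. Ccl5 and Ccl12, also chemokine genes, were lower in both, as were Gatm, Aif1, Ly6a, Ly6i, Ifi27l2a, Ms4a6b, Nkg7 and Ndufa4.

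Over all genes compared, 1126 of 2674 were lower in both libraries (42.1%). Of 15 type I interferon response genes, 12 were lower in both libraries, with medians of -0.65 in Control and -0.79 in IR. Of 14 interferon gamma response genes, 11 were lower in both (medians -0.54 and -0.63). Another 2 of the 14 were higher in both, of which Nos2 passed 2-fold. Of 13 MHC class I presentation genes, 11 were lower in both (medians -0.48 and -0.36). NK cell markers moved with this group. They summed to 122 CPM in selected and 260 CPM in Mmp-negative Control cells, and to 222 and 1108 CPM in IR, where 1 Mmp-negative cell held 311 of the 524 UMIs. The monocyte list summed to 528 and 1192 CPM in Control and to 903 and 2891 CPM in IR. Their part in these differences was not tested.

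The same lists were followed over the count of Mmp12 plus Mmp13, in cells with 0, 1 to 4, 5 to 19, and 20 or more UMIs. In Control the summed level of the glycolysis and hypoxia list was 10082, 11097, 14561 and 18411 CPM in that order. In IR it was 12555, 12457, 13963 and 17549 CPM, with 16 cells in the highest class. The list was therefore highest where Mmp12 and Mmp13 were highest in both libraries, although the 2 lowest IR classes did not differ beyond their intervals. Over all selected cells the glycolysis and hypoxia list was at 16033 CPM in Control and 15984 CPM in IR, beside 12173 and 14328 CPM in the Dcstamp set and 12325 and 15035 CPM in the Clec5a set. The type I interferon list was 1950, 1329, 1148 and 1090 CPM in Control, and 6541, 7037, 4298 and 3321 CPM in IR. Depth moved with the classes. The median was 6290 UMIs per cell in the lowest and 9732 in the highest Control class, and 6276 and 11217 in IR, and its part was not tested.

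**Figure D4:**
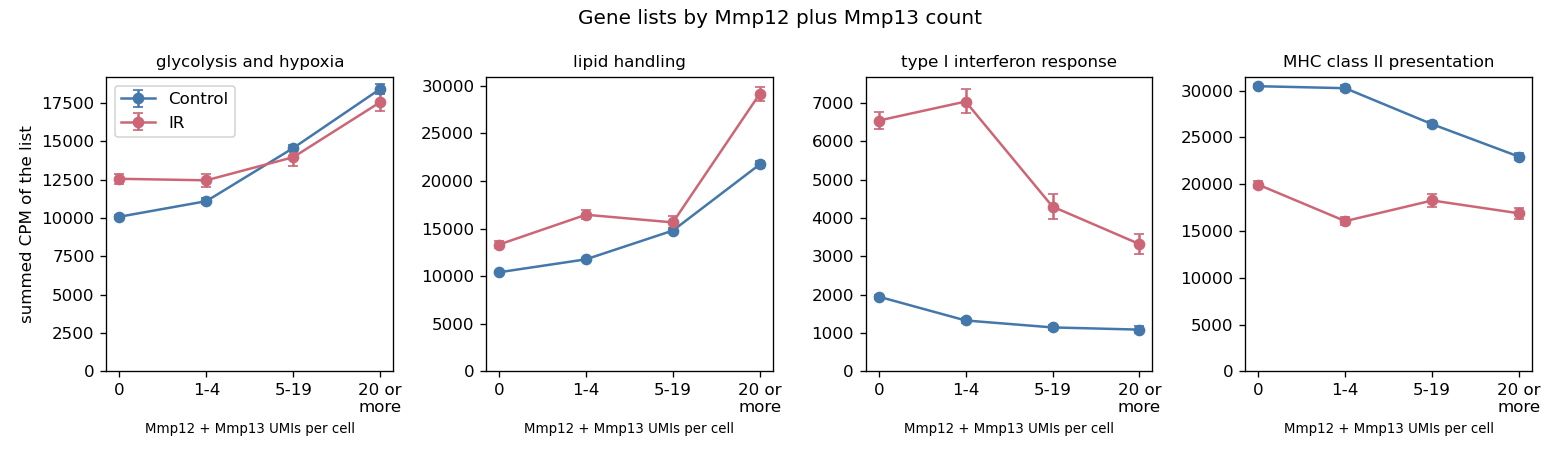
Summed CPM of 4 gene lists in C1q macrophages that met every exclusion, by Mmp12 plus Mmp13 UMIs per cell, in Control and IR, with Poisson intervals (95%). Glycolysis and hypoxia reach 18411 CPM (Control) and 17549 CPM (IR) in the highest class, and the type I interferon list is lowest there, at 1090 and 3321 CPM. The lipid handling list includes Spp1.

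Cells with and without Mmp13 were set side by side. Of 2624 genes, 4 were 2-fold or more higher in the selected cells with Mmp13 (69 in Control, 14 in IR) than in those without (121 and 23) in both libraries, and 0 were lower. These were Mmp13 of the grouping itself, Npy, which encodes neuropeptide Y, Cd36, a scavenger receptor gene, and Plk2, a kinase gene of the p53 response. Npy was at 114 CPM with and 32.9 CPM without Mmp13 in Control, and at 163 and 53.2 CPM in IR. Cd36 was at 117 and 49.8 CPM in Control and at 639 and 57.7 CPM in IR. H2-Eb1, an MHC class II chain gene, was at 2027 and 3253 CPM in Control and at 899 and 1929 CPM in IR. In Control, 56 of the 73 Npy UMIs in cells with Mmp13 lay in 1 cell. Without the top cell of each group, Npy was at 27.3 CPM with and 22.6 CPM without Mmp13 in Control, and at 76.9 and 36.3 CPM in IR. Cd36 and Plk2 then had log2 differences of 0.81 and 0.86 in Control, below 2-fold, and of 3.42 and 2.60 in IR, so none of these 3 genes passed 2-fold in both libraries. No test was possible, and 14 IR cells carry the IR values.

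Between the libraries, the selected IR cells had higher interferon and p53 target transcripts than the selected Control cells, and lower transcripts of sterol synthesis. Most chemokine genes were higher and 8 of 13 alternative activation genes were lower, but the medians of these 2 lists depended on the processing. Of 2626 genes with a mean of at least 50 CPM, 76 were 2-fold or more higher in IR (2.89%) and 25 were lower (0.952%). For 8 of the 76 and 2 of the 25, 1 cell held more than 50% of the UMIs of a library. Without the cell of each library that held most of a gene's UMIs, 45 were higher and 34 lower. Mmp13, at 211 and 492 CPM, is 1 of the 76, with a log2 ratio of 1.18. That ratio became -1.29 in the cells selected again after thinning to 2000 UMIs, with levels taken from their full counts. The genes Ly6c2, Ccr2 and Chil3 of the selection are also counted. When mitochondrial and ribosomal protein genes were left out of the totals, 83 were higher and 60 lower. In the Mmp-negative macrophages, 93 of 2717 genes were higher (3.42%) and 31 lower (1.14%). Of the 76 genes, 36 also passed 2-fold in Mmp-negative cells and 69 had the same sign there. Of the 25, these counts were 4 and 23. Whether the differences between the libraries differed between the cell groups was not tested. The median mitochondrial share was 6.07% in selected Control and 3.81% in selected IR cells, and its part was not tested.

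All 11 type I interferon response genes with enough counts were higher in IR, 9 of them by 2-fold or more, with a median log2 ratio of 1.73 beside 0.00 over all genes. In Mmp-negative cells all 16 were higher, with a median of 1.65. Irf7, a transcription factor gene that amplifies interferon production, was detected in 17.9% of Control and 59.5% of IR cells. It ranged from 0 to 7 UMIs per cell in Control and from 0 to 16 in IR, and its level was 34.6 and 297 CPM, a ratio of 8.60 and a log2 ratio of 2.78. Isg15 was detected in 19.5% and 64.9% of cells, at 47.6 and 306 CPM, a ratio of 6.42 (4.79 to 8.63). A larger share of the IR than of the Control cells held these transcripts, and the ranges of UMIs per cell overlapped. Slfn5 (27.2 and 139 CPM), Rtp4 (14.2 and 86.1 CPM) and Zbp1, a sensor of Z-form nucleic acids (4.33-fold higher, 2.93 to 6.37), followed. Bst2, which encodes tetherin, was at 234 and 628 CPM, and Ifi27l2a at 270 and 919 CPM. Isg15 was also present in empty droplets, at 131 CPM in Control against 588 CPM in IR, and the selected cells of each library lay below that level. With an estimated share of free RNA subtracted (3.05% in Control, 2.32% in IR), its log2 ratio was 2.49, beside 2.45 as counted. Of 7 of the 11 genes with a promoter in the table, 5 held the ISRE letters (Bst2, Isg15, Rsad2, Slfn5 and Trim30a). Among genes higher in IR, 8 of 56 with a promoter held them (14.3%), among those lower 0 of 17, and among all genes compared 4.15%. The 8 include Mmp13 of the selection, which is also counted in the next search. When the last base of the motif was dropped, a search tried after these counts were known, the shares were 17.9%, 11.8% and 8.40%.

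Of 12 interferon gamma response genes, 10 were higher in IR and 2 passed 2-fold, with a median of 0.85. Nos2 is 1 of these 2 and is also on the list of cytokines and mediators below. Cd274, which encodes the checkpoint ligand PD-L1, was at 99.8 and 222 CPM, a ratio of 2.23 (1.69 to 2.92). Cxcl9, an interferon gamma-induced chemokine gene, went the other way, at 213 and 119 CPM. Antigen presentation was split. Of 13 MHC class I genes, 11 were higher (median 0.46), with B2m at 3423 and 5355 CPM. Of 8 MHC class II genes, 6 were lower (median -0.61), with H2-Eb1 at 2807 and 1544 CPM and Cd74, the invariant chain gene, at 10901 and 6894 CPM. None of these MHC genes passed 2-fold. In Mmp-negative cells the interferon gamma median was 0.51, the MHC class I median 0.41 and the MHC class II median -0.73.

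Inflammatory mediators and chemokines were mostly higher. All 13 listed cytokines and mediators were higher in IR, 4 by 2-fold or more, with a median of 0.71. Tnf was at 42.5 and 133 CPM, a ratio of 3.14 (2.14 to 4.57). Il1b, the interleukin 1 beta gene, was at 642 and 1205 CPM, a ratio of 1.88 (1.68 to 2.10). Nos2 was at 60.1 and 264 CPM, and 1 IR cell held 42.1% of its UMIs. Over all genes compared, 1320 of 2626 were higher (50.3%). Of 18 chemokine and receptor genes, 15 were higher, with a median of 0.44 that became -0.085 in the cells selected again after thinning. The 4 past 2-fold were Ccl3 (181 and 653 CPM), Ccl4 (287 and 1144 CPM), Cxcl2 (2263 and 4938 CPM) and Cxcl3 (355 and 1000 CPM). Cx3cr1, the fractalkine receptor gene, was lower, with a ratio of 0.29 (0.13 to 0.56), and 66.7% of its IR UMIs lay in 1 cell. Of 13 NF-kB pathway genes, 10 were higher (median 0.62), and Tnfaip3, Nfkbiz and Icam1 passed 2-fold. In Mmp-negative cells all 11 cytokines and mediators with enough counts were higher, 6 by 2-fold or more, with a median of 1.07. Of 19 chemokine and receptor genes there, 14 were higher, with 7 past 2-fold higher, 4 past 2-fold lower and a median of 0.64. The NF-kB median there was 0.36. A difference between the 2 cell groups was not tested.

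All 6 p53 target genes with enough counts were higher in IR, with a median of 0.93. Cdkn1a, which encodes the cell cycle inhibitor p21, was at 317 and 728 CPM, a ratio of 2.30 (1.98 to 2.66). Mdm2, which encodes the ubiquitin ligase that degrades p53, was at 86.7 and 214 CPM, and Btg2, an antiproliferative gene, at 120 and 258 CPM. In Mmp-negative cells all 5 genes were higher, with a median of 0.65 and 0 past 2-fold. A difference between the 2 cell groups was not tested.

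Slpi, which encodes secretory leukocyte peptidase inhibitor and blocks neutrophil elastase, was the gene with the largest log2 ratio that did not rest on 1 cell. It was detected in 8.95% of Control and 45.9% of IR cells, at 26.6 and 417 CPM, a ratio of 15.6 (11.2 to 22.2). In Mmp-negative IR cells, 134 of the 162 Slpi UMIs lay in 1 cell, and without the top cell of each library the ratio there was 3.44. S100a9, Retnlg and S100a8, neutrophil genes with log2 ratios of 3.79, 3.77 and 3.12, rested on the 1 IR cell named above. Without it the values were -2.15, -0.15 and -0.27. Ppbp, a platelet chemokine gene, and Hdc, the histidine decarboxylase gene, had 85.2% and 72.5% of their IR UMIs in 1 cell. For Dusp2, a phosphatase gene, and Hist1h4i, a histone gene, those shares were 54.8% and 53.6%. Plac8 and Ms4a4c, which are high in monocytes, were at 64.0 and 408 CPM and at 11.9 and 125 CPM. The log2 ratio of Plac8 was however -0.45 in the cells selected again after thinning. Ly6c2 moved with them, at 26.6 and 186 CPM, while Ccr2 (317 and 133 CPM) and Chil3 (103 and 33.3 CPM) were lower in IR. The part of monocyte transcripts in the IR values was not tested.

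The lower genes included several of alternative activation. Retnla was detected in 10.5% of Control cells, with 183 UMIs in all and 42 in the highest cell, and in 0 IR cells. It was at 104 CPM in Control and at least 12.4-fold lower in IR when 3 UMIs are allowed there. Gatm, which encodes the first enzyme of creatine synthesis, was at 185 and 27.8 CPM, a ratio of 0.15 (0.07 to 0.28). Mgl2, a C-type lectin gene, was at 354 and 83.3 CPM, a ratio of 0.24 (0.16 to 0.34), and was detected in 55.3% and 35.1% of cells. Fn1, the fibronectin gene, was at 3182 and 1555 CPM. Arg1, which encodes arginase 1, was close to level, at 5421 and 5099 CPM, a ratio of 0.94 (0.89 to 0.99). Of 13 alternative activation genes, 8 were lower and 5 higher, beside 49.7% lower over all genes compared. Of the 8, 4 passed 2-fold. The list median was -0.43, and -0.089 in cells with at least 10 Mmp UMIs. In Mmp-negative cells 10 of 14 were lower, with a median of -0.23.

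Genes of sterol and fatty acid synthesis were lower as a group. The list was added after these genes were seen among the lowest, so its direction is not independent. All 9 with enough counts were lower and 7 passed 2-fold, with a median of -1.12, and in Mmp-negative cells all 10 were lower, 0 past 2-fold, with a median of -0.74. Scd2, a fatty acid desaturase gene, was at 156 and 41.7 CPM, a ratio of 0.27 (0.15 to 0.45). Hmgcs1, an early enzyme of the mevalonate pathway, was at 90.1 and 22.2 CPM from 8 IR UMIs. Acly, which encodes ATP citrate lyase, was at 130 and 41.7 CPM, and Fdps, which encodes farnesyl diphosphate synthase, at 118 and 38.9 CPM. Lpl (lipoprotein lipase) and Pltp (phospholipid transfer protein) were also lower. Cd36, in contrast, was at 74.3 and 275 CPM, and Spp1 at 4678 and 10060 CPM. Slc7a2, a cationic amino acid transporter gene, was at 619 and 197 CPM. Ckb, Cdh1, Hebp1 and Kcnn4 completed the lowest 15.

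**Figure D5:**
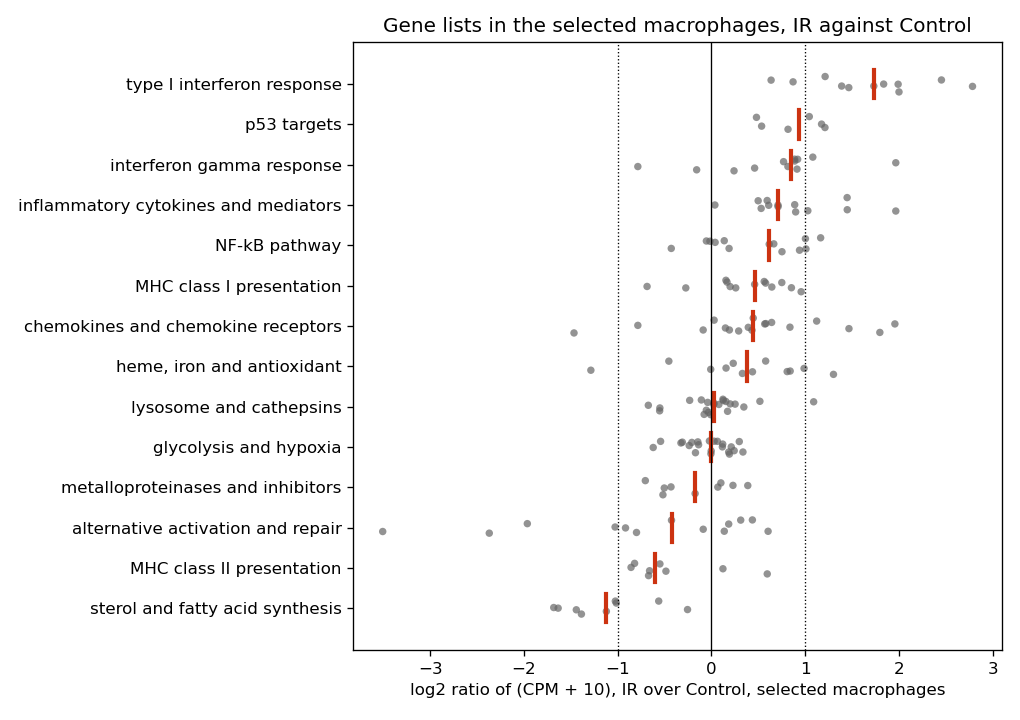
Log2 ratio of CPM + 10, IR over Control, in the selected macrophages, with 1 point per gene, grouped by gene list. Red bars are list medians, from 1.73 for type I interferon response to -1.12 for sterol and fatty acid synthesis, and dotted lines mark 2-fold.

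The other lists had smaller medians. Glycolysis and hypoxia genes, which were higher in the selected than in the Mmp-negative cells of each library, had 10 of 22 genes higher in IR and a median of -0.00. Lysosome and cathepsin genes had a median of 0.03, with Ctsl alone past 2-fold, at 1379 and 2947 CPM. Lipid handling had a median of -0.03, macrophage identity 0.14, and heme, iron and antioxidant genes 0.38. Complement genes had a median of 0.26, immediate-early genes 0.33, plasminogen system genes -0.14, heat shock chaperones -0.11, and unfolded protein response genes -0.14. Of the m6A machinery, 5 genes had enough counts, 4 were higher, and none passed 2-fold.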

How the data were processed

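Raw UMI counts per gene and barcode were deposited by the authors, as 1 unfiltered 10x matrix per library (32285 genes, mm10). Processing notes name Cell Ranger 6.0.1 and the matrix headers Cell Ranger 4. Totals were 48593879 (Control) and 42406461 UMIs (IR), and the selected cells held 1764407 and 360039. With 1 library per group no test was made. UMIs were summed per library and cell group, as CPM with exact Poisson intervals, and shares have Clopper-Pearson intervals, both at 95% and for counting error only. Differences are log2 ratios of CPM + 10 over genes with a mean of at least 50 CPM, counted at 2-fold. The members, gene lists and motifs were chosen with earlier results of these data known. The sterol list, the comparison by Mmp13 (the planned comparison of Mmp13-led with Mmp12-led cells had 8 and 4 Mmp13-led cells), the shortened ISRE motif, and the values without a gene's top cell or without the neutrophil-rich cell were added after values were seen.

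Genes named were the 15 with the largest ratios in each direction that were also at least 0.5 (log2) with the same sign when cells weighed equally, for members against Mmp-negative cells the 15 with the largest smaller ratio, for Mmp13 the 8 largest, of which those past 2-fold are described, plus examples of each list. Genes of the selection are outside this rule. Aldoa and Ddit3 have duplicate symbols and were left out of the lists. The automatic threshold of Scrublet (scanpy 1.11.5) marked 0 and 1 barcodes and was taken as not having worked, so doublets were kept, and the highest 6% were removed as an alternative (10 and 3 selected cells). Alternatives covered scaling (TMM, edgeR 4.0.16), pseudocount, filters, thinning, cell thresholds and free RNA (a share estimated from T cell markers in cells chosen to lack Cd3d and Cd3g). Coordinates are GRCm38, and promoters are from RefSeq. Python 3.11.15, numpy 2.4.6, scipy 1.17.1 and pandas 2.3.3 were used, and the calculations were tested on simulated data.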

Additional observations from a re-analysis of the deposited data

Results flagged for a closer look

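Mmp12 was also counted in empty droplets, a level not given above, and was higher there in IR than in Control. Droplets with 3 to 67 UMIs in Control and 3 to 40 in IR, taken by rank far below the cells, held Mmp12 at 455 CPM in IR and 337 CPM in Control, a ratio of 1.35 (1.19 to 1.52). The selected cells were at 3219 and 2280 CPM.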

How the results depend on the processing

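No paired analysis was possible because each group held a single library, and no library could be left out. The share ratio of 0.262 became 0.736 against all C1q macrophages, 1.07 against those meeting every exclusion (the other direction), and 0.605 when Mmp13 alone had to reach 5 UMIs. The 76 higher and 25 lower genes became 41 and 7 with a pseudocount of 50 CPM, 141 and 78 at a mean of 20 CPM, 47 and 6 at 100 CPM, and 201 and 197 with no filter but 1 UMI. Lower genes numbered 60 without mitochondrial and ribosomal protein genes, 43 with a pseudocount of 1 CPM, 51 after thinning (7 of them among the 25) and 49 at 10 Mmp UMIs. Without each gene's top cell, 45 were higher. After thinning 75 were higher, 33 of them among the 76. Thinned cells were selected again with unchanged UMI limits, so the exclusions removed fewer cells and the thinned set can differ in make-up. Levels between the libraries in that set were taken from the full counts of its 74 Control and 18 IR cells. These values therefore show a change of cells and not of depth. Genes higher than in Mmp-negative cells numbered 10 at a pseudocount of 50. The type I interferon median was 1.23 (pseudocount 50), 1.46 (20 CPM), 1.24 (1 UMI) and 1.47 (10 Mmp UMIs). The MHC class II median was -0.29 (1 UMI) and -0.88 (thinned). The alternative activation median was -0.70 without mitochondrial and ribosomal protein genes, -0.80 at 20 CPM and at 1 UMI, and -0.089 at 10 Mmp UMIs. The inflammatory median was 0.96 without cells holding other lineages. Directions turned for the complement median at 1 UMI (-0.080) and, after thinning, for the chemokine median (-0.085), Hdc (-0.85), Plac8 (-0.45), Mmp13 (-1.29), and against Mmp-negative cells in IR the metalloproteinase (0.38) and sterol (0.073) medians. S100a9 was -2.77 thinned, -2.72 at 10 Mmp UMIs, -0.73 without its top cell and -2.15 without the neutrophil-rich cell. Retnlg was 0 thinned, without other lineages and without its top cell, -0.21 at 10 Mmp UMIs and -0.15 without the neutrophil-rich cell. S100a8 was -0.18, -0.20 and -0.27 thinned, at 10 Mmp UMIs and without that cell. The cause was not tested. The 37 IR cells limit every IR value.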
